A study of Homo sapiens with 4 samples.

Results

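The AP-1 family was described here at its 10 genes FOS, FOSB, FOSL1, FOSL2, JUN, JUNB, JUND, ATF3, BATF and BATF3, out of 20136 protein-coding genes with a GENCODE annotation on hg19 (GRCh37). The genes were chosen by name. For each one, the H3K27ac peaks overlapping 1 kb either side of any of its transcript starts were taken as promoter peaks. Peaks within 50 kb of the gene body that lay outside 1 kb of every protein-coding start were taken as distal peaks.

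AP-1 is a dimeric transcription factor of the basic leucine zipper (bZIP) class. FOS proteins cannot pair with themselves and bind DNA with a JUN partner, while JUN proteins pair with FOS proteins or with each other, and ATF3, BATF and BATF3 pair mostly with JUN proteins. The dimers bind short sites that were searched for here as TGANTCA, with any base accepted at N. Many of the genes are immediate-early genes switched on by growth factors and stress through MAP kinases. In epithelial tumours, AP-1 is known for driving invasion and for opening enhancers.

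The samples were 4 established human cancer cell lines: COLO-205 from colon, DU-145 from prostate, and OVCAR-3 and SKOV-3 from ovarian cancer. The labels name no treatment or engineered change, and all lines were grown in medium with fetal serum (FBS), RPMI for COLO-205, Eagle minimal essential medium for DU-145, RPMI 1640 for OVCAR-3 and McCoy’s 5a for SKOV-3. H3K27ac, an acetylation of histone H3 found at active promoters and enhancers, was measured by ChIP-seq with 1 antibody (ab4729) in 1 library per line. With no replicates, no difference between lines has a test, line and library cannot be told apart, and counts of AP-1 genes are read beside the share of all protein-coding genes in the same list. Peak calls say nothing of the RNA or protein level of a gene.

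The lists held 85576 peaks in COLO-205 and 75468 in DU-145, with 76093 in OVCAR-3 and 14001 in SKOV-3, from an estimated 29800000, 36000000, 34200000 and 22400000 tags. SKOV-3 therefore had the fewest tags and the shortest list, and an absent peak there is a weaker statement than in the other lines. The median peak had 24 to 30 tags at its summit, so every absence below means that no peak passed the threshold at this depth. Of the markers of each labelled tissue, COLO-205 had promoter peaks at 4 of 8 colon genes (CDX2, VIL1, HNF4A and LGALS4, but not CDX1, CDH17, KRT20 or CEACAM5). Of the prostate luminal genes given here, DU-145 had one at TMPRSS2 and none at KLK2, KLK3, FOLH1 or HOXB13. OVCAR-3 had them at 6 of 7 ovarian carcinoma genes, lacking ESR1, and SKOV-3 at 4 of 7, lacking WT1, MUC16 and EMX2, while COLO-205 also had 4 of these 7 and DU-145 had 3. Of the 4 general epithelial markers SKOV-3 lacked EPCAM and CDH1, and the other lines had all 4. Such peaks were not specific to a tissue: PAX8 and MECOM of the ovarian list had one in all 4 lines, and KLK2 and KLK3 of the prostate list had one in COLO-205. Of 4 fibroblast genes each line except SKOV-3 had 1, COL1A1, and SKOV-3 had 0. Of 4 leukocyte genes, DU-145 had 1, CD14, and the others 0.

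Promoter peaks were found in every line at 5 members, in some of the lines at 4 and in no line at 1. FOS, FOSL2, JUN, JUNB and JUND had a promoter peak in all 4 lines, a pattern shared by 25.2% of protein-coding genes. JUNB lost its COLO-205 peak, and with it this pattern, at a −log10 q of at least 10 and with lists of equal length. FOSL1 had one in every line except OVCAR-3, a pattern of 0.541% of genes. ATF3 was marked in DU-145 and OVCAR-3 (9.98% of genes), FOSB in DU-145 alone (4.36%), BATF in COLO-205 alone (6.17%) and BATF3 in no line (24.9%).

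By line, 7 of the 10 genes had a promoter peak in COLO-205, where 51.2% of all protein-coding genes had one. DU-145 had 8 (59.9% of all genes), OVCAR-3 6 (60.5%) and SKOV-3 6 (31.6%). In SKOV-3 the share of AP-1 genes therefore stood farthest above that of all genes, and in OVCAR-3 it was at the level of all genes. Promoter peaks among the strongest 10% of a list by −log10 q, the peak caller's measure of how unlikely the tag pile is under the local background, occurred at 6 genes in COLO-205 (15.9% of all genes) and 4 in DU-145 (26%), with 5 in OVCAR-3 (26.4%) and 4 in SKOV-3 (5.68%).

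**Figure D1:**
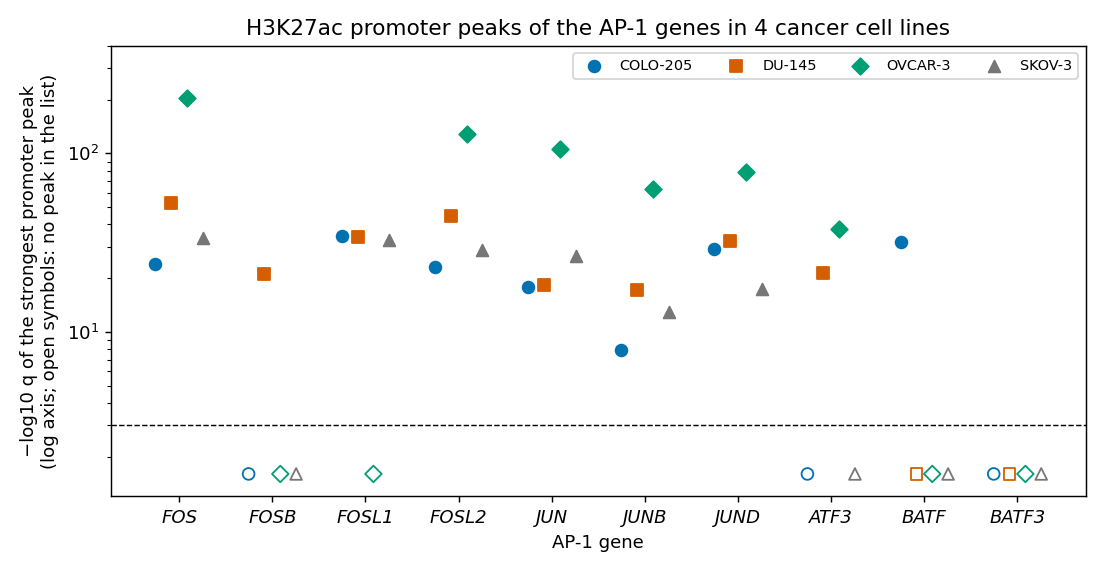
Strongest promoter peak of each AP-1 gene in each line, as −log10 q on a log axis, with open symbols at the bottom where the list held no promoter peak; the dashed line is the authors' threshold at a −log10 q of 3. OVCAR-3 has the highest value at FOS, FOSL2, JUN, JUNB, JUND and ATF3, and the open symbols fall on FOSB, FOSL1, ATF3, BATF and BATF3.

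FOS, the founding member and a gene rapidly induced by serum, lies at chr14:75745529-75748933 on the plus strand. Its strongest promoter peak had a −log10 q of 23.9 in COLO-205 and 52.7 in DU-145, with 205.3 in OVCAR-3 and 33.6 in SKOV-3, which placed it at percentiles 94.7, 98.9, 99.6 and 95 of the peaks of each list. The fold enrichment over the local background was 5.38, 6.63, 19.0 and 8.31 in the same order. All 4 lines thus had a strong peak there, and OVCAR-3 had the strongest.

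The summits of these peaks lay close together, at −167 bp from the outermost FOS start in COLO-205 and −154 bp in DU-145, with −165 bp in OVCAR-3, and −159 bp for SKOV-3. They spanned 13 bp, although the peaks themselves were 309, 2527, 772 and 280 bp wide. Among the 5071 protein-coding genes with a promoter peak in all 4 lines, 0.493% had a span this small or smaller, and the median span was 257 bp. The spans of the other 4 genes marked everywhere were 99 bp for JUND, 168 bp for FOSL2, 220 bp for JUN and 1983 bp for JUNB. FOS was singled out for this after the values were seen.

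The stretch of the FOS promoter printed here holds these 4 summits and 1 match to the CArG box, the motif of serum response factor, at −312 to −303. It lies at chr14:75745187-75745389 in hg19 and is written on the plus strand, with the match in capitals. In the 500 bases before the outermost start, a CArG box (searched on both strands) occurred at 2.49% of the 20136 genes and at 2 AP-1 genes, FOS and FOSB. A match is a description of the letters and no evidence of binding.
FOS promoter: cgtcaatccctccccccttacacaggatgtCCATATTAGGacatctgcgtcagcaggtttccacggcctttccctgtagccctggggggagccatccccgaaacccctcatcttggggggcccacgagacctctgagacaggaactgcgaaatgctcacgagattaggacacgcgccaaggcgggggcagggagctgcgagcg

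On a scale of tags at the summit per 1000000 tags of the library (scaled tags), FOS had 2.11 in COLO-205 (exact Poisson 95% interval 1.62 to 2.7) and 3.22 in DU-145 (2.66 to 3.86), with 6.72 in OVCAR-3 (5.88 to 7.65), and 2.72 for SKOV-3 (2.08 to 3.5). The intervals cover counting error only. The OVCAR-3 interval did not overlap the other 3, but the median of the 5071 genes was also highest there, at 3.42 against 1.71 in COLO-205, 2.22 in DU-145 and 1.79 in SKOV-3. Relative to these medians, FOS was 1.24, 1.45, 1.97 and 1.53 times the typical marked gene, and the COLO-205 interval alone held the median of its library.

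**Figure D2:**
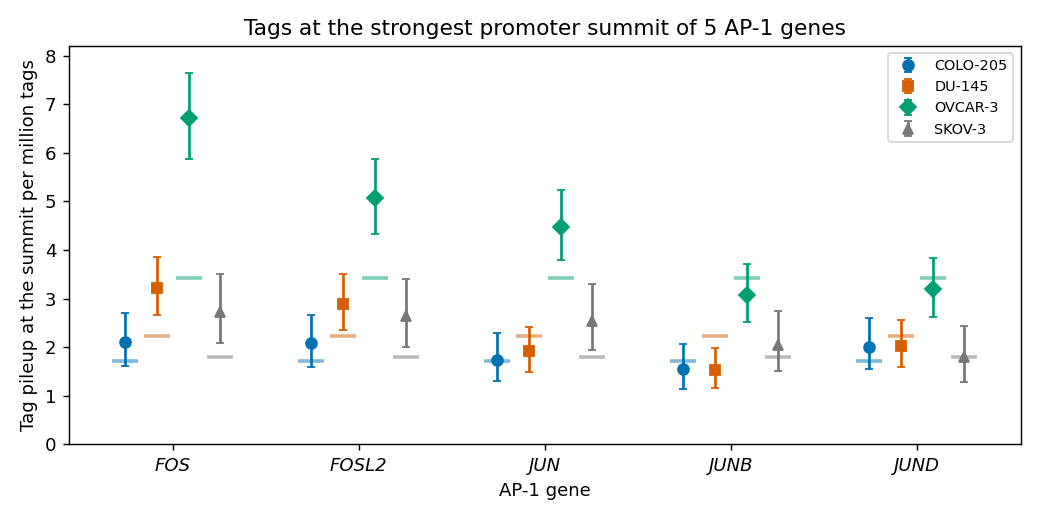
Tags at the summit of the strongest promoter peak per 1000000 tags, for the 5 AP-1 genes marked in all 4 lines; points are single libraries, bars are exact Poisson 95% intervals for counting error, and the short pale lines are the medians of the 5071 genes marked in all lines. FOS and FOSL2 lie above the pale line in every library, while JUNB lies below it in COLO-205, DU-145 and OVCAR-3.

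The flanks of FOS held 9 distal peaks in COLO-205 and 18 in DU-145, with 38 in OVCAR-3 and 4 in SKOV-3. In OVCAR-3 this was percentile 97.4 of all genes and 97.3 of the genes on chromosome 14. The 4 peaks of SKOV-3, the fewest, were at percentile 96.7 of all genes in that shorter list, and 92 on chromosome 14, and the 9 of COLO-205 at 83.1 and 90.6. In DU-145 it was percentile 92.9 of all genes but 49.8 on chromosome 14, where the DU-145 list had 125 peaks per Mb against a median of 24.9 over chromosomes. Between 50 kb and 1 Mb from FOS there were 328 DU-145 peaks (percentile 96.8) and 314 OVCAR-3 peaks (percentile 95.4). The high count in DU-145 was therefore shared with the rest of the chromosome, and its part in the FOS count was not tested.

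Among the 44 distal regions of FOS, obtained by joining overlapping peaks of the lines, 2 were present in all 4 lines. The stronger one lay at chr14:75760141-75762158, intergenic, with its highest summit at +15.2 kb, and had a −log10 q of 12.7 in COLO-205 and 44.9 in DU-145, with 123 in OVCAR-3, and 13.7 for SKOV-3. The other lay at chr14:75725218-75725839 over an exon of the unnamed gene ENSG00000289340, at −20.0 kb, with 17.2, 38.7, 66.2 and 7.07 in the same order. Both had their highest −log10 q in OVCAR-3, a value that is not scaled between libraries. Of the other 42 regions, 30 were found in 1 line only, 22 of them in OVCAR-3.

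**Figure D3:**
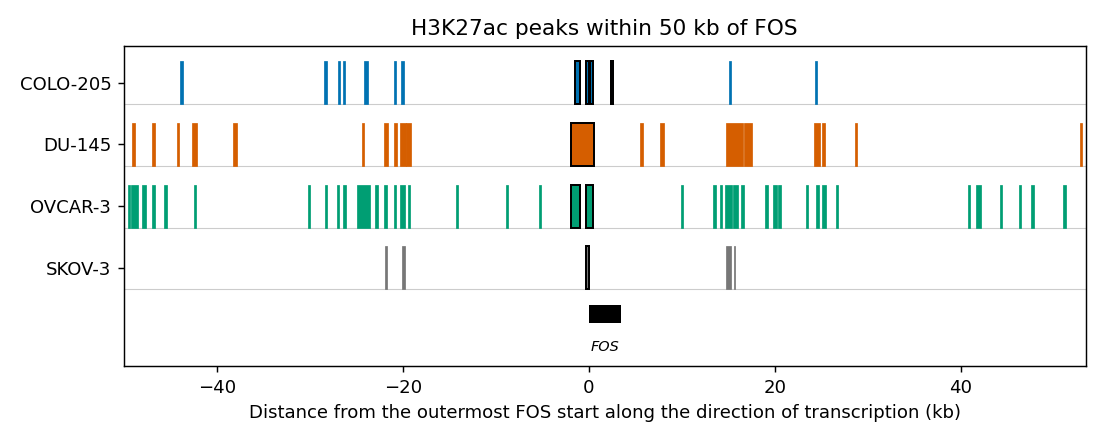
H3K27ac peaks within 50 kb of FOS in the 4 lines, by distance from the outermost FOS start in kb along the direction of transcription; each block is 1 peak and promoter peaks have a black outline. OVCAR-3 has the most blocks, with 38 distal peaks, and SKOV-3 the fewest, with 4; blocks near −20.0 and +15.2 kb occur in every line.

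FOSB, a second immediate-early FOS gene, at chr19:45971253-45978437 on the plus strand, had promoter peaks in DU-145 alone. There were 2 of them, the stronger with a summit at −172 bp, 72 tags, a fold of 4.22 and a −log10 q of 21.1, at percentile 87.1 of the list. The flanks held 2, 3, 3 and 1 distal peaks in COLO-205, DU-145 and the ovarian lines OVCAR-3 and SKOV-3, and a region in an ERCC1 intron at −28.2 kb was shared by DU-145, OVCAR-3 and SKOV-3. The strongest distal region, in another part of an ERCC1 intron at −11.8 kb, was found in OVCAR-3 only, with a −log10 q of 31.2. The locus was thus marked around the gene in lines that lacked a promoter peak.

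The FOSB promoter holds both a CArG box, at −273 to −264, and the sequence TGACGTCA at −324 to −317. TGACGTCA is the cyclic AMP response element bound by CREB, ATF and some AP-1 dimers. It reads the same on both strands and was found within 500 bases upstream of 2.21% of genes, and of 2 AP-1 genes, FOSB and JUND. The stretch of FOSB, at chr19:45970899-45971019 on the plus strand, and that of JUND, at chr19:18392595-18392662 on the minus strand with its match at −200 to −193, are shown because no other AP-1 gene had this match in that window; capitals mark the matches.
FOSB promoter: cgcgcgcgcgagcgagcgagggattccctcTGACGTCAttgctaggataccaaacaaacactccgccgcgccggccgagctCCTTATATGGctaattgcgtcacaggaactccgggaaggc
JUND promoter: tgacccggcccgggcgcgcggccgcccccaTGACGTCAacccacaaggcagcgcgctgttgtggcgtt
The AP-1 motif TGANTCA itself, also the same on both strands, occurred in the same window of 10.8% of genes and of 0 AP-1 genes. The window lies before the outermost start, so the stretch before the marked internal starts of ATF3 was not searched.

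FOSL1 encodes FRA1, the FOS protein most often tied to invasive carcinoma cells, and lies at chr11:65659520-65668044 on the minus strand. Its strongest promoter peak had a −log10 q of 34.4 in COLO-205, 33.9 in DU-145 and 32.6 in SKOV-3, at percentiles 97.6, 95.2 and 94.6 of the lists. OVCAR-3 had no promoter peak and also 0 distal peaks, against 4 in COLO-205, 8 in DU-145 and 8 in SKOV-3. The OVCAR-3 list was not empty around the gene: 9 peaks at promoters of neighbouring genes lay in the same window, and 253 peaks lay 50 kb to 1 Mb away (percentile 93.1 of all genes).

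In COLO-205 and SKOV-3 the promoter peak of FOSL1 covered nearly the same bases just inside the gene, ending 1472 and 1493 bp after the outermost start. In DU-145 there were 3 promoter peaks. The peak at this same site, from 176 to 1858 bp, had a −log10 q of 32.9 and 96 tags at its summit. The strongest by −log10 q, with 33.9, was a 2706-bp peak reaching from −3438 to −733 bp. It had 73 tags, with its summit at −2966 bp. Peaks covered 81.3% of the FOSL1 gene body in DU-145, 14.9% in COLO-205, 15.1% in SKOV-3 and 0% in OVCAR-3. Within the gene body, DU-145 therefore had broad coverage where COLO-205 and SKOV-3 had a single block. Under the upstream DU-145 peak, COLO-205 had peaks at −2634 to −2137 and −3051 to −2776 bp. SKOV-3 had them at −2674 to −2143 and −3091 to −2848 bp. In these 2 lines they were counted as distal.

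Over the whole window of 108.5 kb, which includes 9 other coding genes, peaks covered 30.5% in DU-145 (percentile 99.5 of all genes), 6.23% in SKOV-3 (percentile 99.5), 4.88% in COLO-205 (percentile 88.8) and 5.37% in OVCAR-3 (percentile 85.2). The wider surroundings, 50 kb to 1 Mb away, were also dense in peaks, with 268 in DU-145 (percentile 94.2), 72 in SKOV-3 (percentile 97.8) and 122 in COLO-205 (percentile 77.4), and their part in the coverage was not tested. The strongest distal region was intergenic, 4285 bp wide, at chr11:65677105-65681389, with its summit at −11.6 kb. Its −log10 q was 63.9 in DU-145, 22.5 in SKOV-3 and 9.56 in COLO-205. An intergenic region at −15.0 kb had 36.1 in SKOV-3 and 12.0 in COLO-205, and in DU-145 it was under a peak counted to a neighbouring promoter. Upstream marking of FOSL1 was thus shared by the 3 lines that had its promoter peak.

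**Figure D4:**
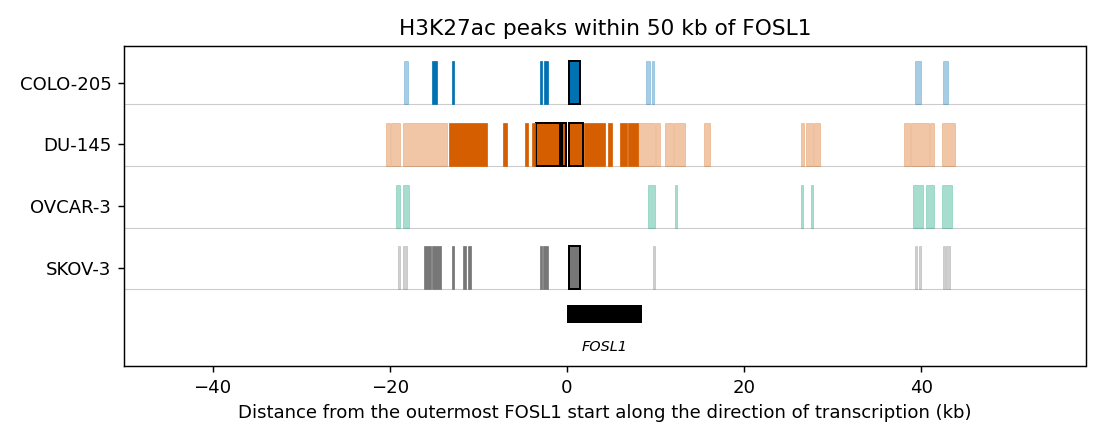
H3K27ac peaks within 50 kb of FOSL1 in the 4 lines, by distance from the outermost FOSL1 start in kb along the direction of transcription; promoter peaks have a black outline, full colour marks distal peaks and pale blocks are peaks at promoters of other genes. DU-145 is covered over 30.5% of the window, and OVCAR-3 has pale blocks only.

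FOSL2, which encodes FRA2, lies at chr2:28615315-28640184 on the plus strand. Its strongest promoter peak had a −log10 q of 23.2 in COLO-205 and 44.7 in DU-145, with 128 in OVCAR-3 and 28.8 in SKOV-3, and 2.08, 2.89, 5.06 and 2.63 scaled tags at the summit. These were 1.22, 1.3, 1.48 and 1.48 times the median of the genes marked everywhere. By scaled tags FOSL2 ranked next after FOS among the 5 genes marked everywhere, but the intervals of FOS and FOSL2 overlapped in each line except OVCAR-3, and by −log10 q JUND (29.0) was above both in COLO-205.

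The FOSL2 flanks held 5, 14, 18 and 0 distal peaks in COLO-205, DU-145 and the ovarian lines OVCAR-3 and SKOV-3. SKOV-3 had no distal peak there although it had 3 promoter peaks. The strongest distal region was intergenic, at chr2:28658868-28661956, +44.7 kb from the start, with a −log10 q of 200 and 207 tags in OVCAR-3 and 15.5 and 46 tags in COLO-205. It was close in strength to the FOS promoter in OVCAR-3 and had no peak in DU-145 or SKOV-3.

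JUN, the partner of all FOS proteins, lies at chr1:59242517-59249720 on the minus strand. Its strongest promoter peak had a −log10 q of 17.9 in COLO-205 and 18.3 in DU-145, with 106 in OVCAR-3, and 26.5 for SKOV-3. The summits lay upstream of the start in each line, at −662, −442, −469 and −460 bp. A second peak inside the gene was found in COLO-205, OVCAR-3 and SKOV-3, and in DU-145 0 bases of the JUN body were under a peak. The summit value in scaled tags was 1.02 times the median of genes marked everywhere in COLO-205 and 0.863 in DU-145, with 1.31 in OVCAR-3 and 1.43 in SKOV-3.

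JUN had 5, 2, 3 and 1 distal peaks in COLO-205, DU-145 and the ovarian lines OVCAR-3 and SKOV-3, in a sparse neighbourhood of 5 to 19 peaks between 50 kb and 1 Mb. The strongest distal region lay in an intron of LINC01135 at −30.7 kb, with a −log10 q of 42.5 in OVCAR-3 and 8.89 in COLO-205.

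JUNB, a JUN protein that is a weaker activator at many targets, lies at chr19:12902300-12904129 on the plus strand. Its strongest promoter peak was among the weaker ones of the family, with a −log10 q of 7.96 in COLO-205 and 17.2 in DU-145, with 63.0 in OVCAR-3, and 12.9 for SKOV-3. The strongest peak lay inside the gene in COLO-205 and SKOV-3, with summits at 230 and 197 bp, and upstream in DU-145 and OVCAR-3, at −989 and −1753 bp. All 4 lines had a peak inside the gene that began 102 to 150 bp after the start, and peaks covered 54.3%, 91.8%, 70.9% and 69.3% of the gene body in COLO-205, DU-145 and the ovarian lines OVCAR-3 and SKOV-3.

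The flanks of JUNB were marked in every line, with 7, 4, 6 and 6 distal peaks in COLO-205, DU-145 and the ovarian lines OVCAR-3 and SKOV-3. Its 5 distal regions all lay in introns of the neighbouring gene HOOK2 by the annotation, 3 of them in all 4 lines, and none was found in 1 line only. The region at −8.4 kb (chr19:12893105-12895356) had a −log10 q of 13.6 in COLO-205 and 5.63 in DU-145, with 43.6 in OVCAR-3, and 34.5 for SKOV-3. The region at −2.5 kb had 3.89, 4.28, 21.1 and 21.0, and that at +2.4 kb had 7.54, 25.3, 31.3 and 5.53, in the same order. The strongest, at −1.7 kb, had 46.8 in SKOV-3, 35.0 in DU-145 and 10.9 in COLO-205, and in OVCAR-3 it was under the upstream promoter peak. In SKOV-3, 9.04% of the JUNB window was under peaks, percentile 99.8 of all genes.

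The JUNB region at −8.4 kb also carried the most AP-1 motifs of the family's distal regions, 3 matches to TGANTCA within 300 bases around its strongest summit. These bases, chr19:12893760-12894059 on the plus strand, are shown with the 3 matches in capitals, followed by 31 bases around the single match in some of the distal regions that held 1 match and were found in 3 lines. Not all such regions are shown. Those shown were the JUNB region at −5.3 kb (chr19:12897099-12897129), the ERCC1 intron region of FOSB at −28.2 kb (chr19:45943071-45943101) and the FOS region at −21.8 kb (chr14:75723570-75723600).
JUNB region at −8.4 kb: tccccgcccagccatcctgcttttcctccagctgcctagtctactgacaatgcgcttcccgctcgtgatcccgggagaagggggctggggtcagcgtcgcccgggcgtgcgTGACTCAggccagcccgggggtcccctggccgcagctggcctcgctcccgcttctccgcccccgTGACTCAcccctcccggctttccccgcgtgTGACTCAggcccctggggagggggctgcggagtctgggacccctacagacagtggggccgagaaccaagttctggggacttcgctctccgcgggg
JUNB region at −5.3 kb: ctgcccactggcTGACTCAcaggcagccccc
FOSB region at −28.2 kb: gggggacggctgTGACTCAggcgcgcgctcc
FOS region at −21.8 kb: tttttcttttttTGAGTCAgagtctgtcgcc

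JUND, the JUN gene that is expressed most steadily across tissues, lies at chr19:18390504-18392432 on the minus strand. Its strongest promoter peak had a −log10 q of 29.0 in COLO-205 and 32.5 in DU-145, with 78.2 in OVCAR-3, and 17.5 for SKOV-3. The peak lay upstream of the outermost start in each line, with summits at −555, −588, −568 and −654 bp. Peaks covered 61.1%, 92.1%, 82% and 48.5% of the gene body, in the same order. There were 3, 5, 1 and 1 distal peaks, and the strongest region, intergenic at −23.5 kb, had 9.81 in COLO-205, 18.6 in DU-145 and 9.72 in SKOV-3.

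ATF3, a stress-induced member that can repress transcription as a homodimer, lies at chr1:212738676-212794119 on the plus strand. Its promoter peaks lay at internal starts and not at the outermost start. The strongest had a −log10 q of 21.5 in DU-145 and 37.6 in OVCAR-3, with summits 43642 and 43631 bp downstream of the outermost start and 61 and 50 bp after the nearest one. The summits of both lines were thus at nearly the same position. A distal region over an exon of RP11-61J19.4 at −6.5 kb was found in COLO-205, DU-145 and OVCAR-3, with 8.35, 23.5 and 36.4. SKOV-3 had 0 peaks in the whole window.

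BATF, a short member without an activation domain and known from lymphocytes, lies at chr14:75988798-76013336 on the plus strand. Its promoter peak in COLO-205 was 393 bp wide with its summit 9 bp after a start, 46 tags over a local background of 3.44, a fold of 10.6 and a −log10 q of 31.9, at percentile 97.2 of the list. No other promoter peak of the family in COLO-205 had a higher fold, but the tags at its summit were as many as at JUNB and fewer than at the strongest promoter peaks of FOS, FOSL1, FOSL2, JUN and JUND in this line. The flanks held 9 distal peaks in COLO-205 and 17 in DU-145, with 30 in OVCAR-3 and 0 in SKOV-3, so the lines with the most distal peaks had none at the promoter. The DU-145 count was at percentile 48.1 of genes on chromosome 14, and the OVCAR-3 count at percentile 94.6. The strongest distal region, in a BATF intron at +13.9 kb, was found in DU-145 only, with a −log10 q of 43.8.

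BATF3, known from dendritic cells, lies at chr1:212859759-212873182 on the minus strand. It had no promoter peak, and 1 distal peak in COLO-205 and 2 in DU-145, and none in OVCAR-3 or SKOV-3. The strongest of these, over an exon of LINC02773 in DU-145, with a −log10 q of 16.1, also lay in the window of ATF3 and was counted once in the totals.

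Over the 10 loci together, which span 1113994 bases, there were 48 distal peaks in COLO-205 and 75 in DU-145, with 101 in OVCAR-3 and 21 in SKOV-3. All 10 genes had at least 1 distal peak in COLO-205, where 73.6% of all genes did, and all 10 in DU-145 (63.5%). The COLO-205 number was 6 at a −log10 q of at least 10 and 5 with lists of equal length. With the lists as deposited, the number was 8 in OVCAR-3 (59.3%), without FOSL1 and BATF3, and 6 in SKOV-3 (21.9%), without FOSL2, ATF3, BATF and BATF3. The median per AP-1 gene was 4.5, 4.5, 3 and 1 distal peaks, against 2, 2, 1 and 0 over all genes. FOS and BATF carried much of the totals, which were 30, 40, 33 and 17 without them. Without these loci the lead of OVCAR-3 was gone and DU-145 had the highest count. By bases under any peak, DU-145 led with all loci kept, with 88221 bases (7.92% of the loci) against 68930 (6.19%) in OVCAR-3, 32834 (2.95%) in COLO-205 and 24560 (2.2%) in SKOV-3. The order also depended on the length of the lists: with as many peaks per library as the SKOV-3 list held, the totals were 8, 14, 19 and 21, and SKOV-3 went from the fewest to the most.

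**Figure D5:**
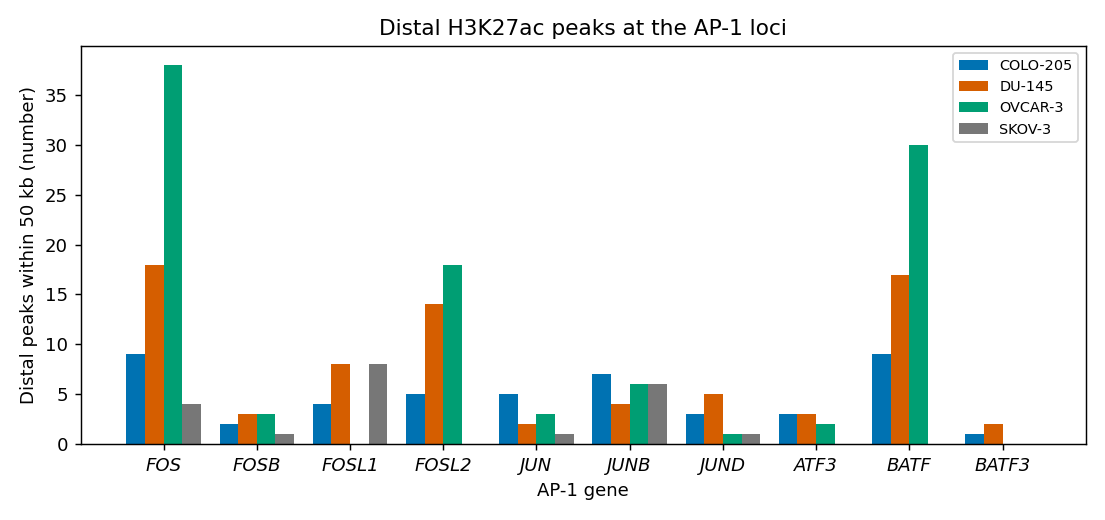
Number of distal H3K27ac peaks within 50 kb of each AP-1 gene in each line, 1 library per bar. FOS and BATF have the highest bars in OVCAR-3 (38 and 30), FOSL1 has no bar in OVCAR-3, and JUNB has 4 to 7 peaks in every line.

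Joining overlapping distal peaks of the 4 lines gave 157 regions, of which 104 had a distal peak in 1 line, 36 in 2, 12 in 3 and 5 in 4. Of those in 1 line, 51 were in OVCAR-3, 35 in DU-145, 16 in COLO-205, and SKOV-3 had 2. These counts ignore peaks that another line has at a promoter: with any peak counted, 101 regions were in 1 line, and both SKOV-3 regions, near FOSL1, were also under a DU-145 peak. By annotation, 90 regions were intergenic at their strongest summit and 51 were in introns. A distal peak of an AP-1 locus overlapped a peak of another line in 68.8% of cases in COLO-205 and 53.3% in DU-145, with 49.5% in OVCAR-3 and 100% in SKOV-3. Over all distal peaks these shares were 15.9%, 25.8%, 28.6% and 66%, so each line shared more of its AP-1 distal peaks than of its distal peaks at large. The AP-1 distal peaks were also wider, with medians of 326.5, 391, 310 and 374 bp against 273, 340, 286 and 255 bp. The part of width in the sharing was not tested.

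The AP-1 motif TGANTCA lay within 300 bases centred on the summit in 4 of 48 distal peaks of the family in COLO-205, which is 8.33% (exact Clopper-Pearson 95% interval 2.32% to 20%, for counting error only), against 4.93% of all distal peaks. The share was 12% in DU-145 (9 of 75, interval 5.64% to 21.6%) against 7.83%, and 8.91% in OVCAR-3 (9 of 101, interval 4.16% to 16.2%) against 7.24%. In SKOV-3 it was 28.6% (6 of 21, interval 11.3% to 52.2%) against 6.97%. The intervals of COLO-205, DU-145 and OVCAR-3 held the share of all distal peaks, and that of SKOV-3 did not. Without the FOS and BATF loci the shares were 10%, 7.5%, 15.2% and 29.4% in COLO-205, DU-145 and the ovarian lines OVCAR-3 and SKOV-3, each within the interval given above. Neighbouring peaks of 1 locus are not independent, so the SKOV-3 interval is too narrow.

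Of the 13 related bZIP genes examined, 8, 10, 11 and 9 had a promoter peak in COLO-205, DU-145 and the ovarian lines OVCAR-3 and SKOV-3, and 7 had one in every line. The shares of all protein-coding genes were 51.2%, 59.9%, 60.5% and 31.6%, with 25.2% in every line and 24.9% in no line. BATF2, another BATF gene, and MAF had none in any line. MAFK was marked in every line but SKOV-3, and ATF2 and ATF7, which pair with JUN, in every line but COLO-205. BATF2 was thus like BATF3 in having no promoter peak.

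Of 17 genes upstream of AP-1, 12, 16, 17 and 13 had a promoter peak in the same order of lines, and 10 had one in every line, beside the same shares of all genes (51.2%, 59.9%, 60.5%, 31.6% and, for every line, 25.2%). ELK1, a partner of serum response factor at FOS, was marked in OVCAR-3 only, on chromosome X, and MKL1, another partner, in DU-145 and OVCAR-3. The kinase genes MAPK3, MAPK8 and MAPK10 lacked a peak in COLO-205, and MAPK14 and EGFR lacked one in SKOV-3. Every gene of this upstream list had a peak in OVCAR-3, the line with no peak at FOSL1.

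Of 14 textbook AP-1 targets, 5, 7, 6 and 4 had a promoter peak, and 3 (PLAU, CCND1 and VEGFA) had one in every line, beside 51.2%, 59.9%, 60.5% and 31.6% of all genes, and 25.2% in every line. In no line did the targets exceed the share of all genes. The matrix metalloproteinase genes MMP1, MMP3 and MMP10, the protease inhibitor gene TIMP1, and the chemokine gene CXCL8 had none in any line. MMP9 was marked in COLO-205 only, PLAUR and IL6 in DU-145 and OVCAR-3, HBEGF in COLO-205 and DU-145, and CD44 in every line but COLO-205. Of all protein-coding genes, 24.9% likewise had no promoter peak in any line.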

How the data were processed

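H3K27ac ChIP-seq peaks of 4 cell lines were analysed, 1 library each. The authors mapped reads to hg19 with Bowtie2 (version 2.1.0) and called narrow peaks per library with MACS2 (version 2.1.0.20150603) at a q-value below 0.001, without pooling. Each deposited peak has a position, a score made from its −log10 q, a fold enrichment over local background (a ratio), a −log10 p and a −log10 q. These deposited values are relative to the background of 1 library and are not scaled between libraries, so their size moves with depth and enrichment. Merging of peaks under 350 bp apart is described in the study's methods, but the lists hold closer neighbours, so peaks were used as deposited.

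Genes came from GENCODE version 44 lifted to GRCh37, with all transcript starts. Overlap was at least 1 bp, and a peak within 1 kb of another coding gene's start was left out of the distal peaks. Distances are along the direction of transcription from the outermost start. Tags at each summit were recovered from the fold and −log10 p as the whole number whose Poisson p fitted within 0.001 on the −log10 scale, and the tags of a library were estimated from its lowest background with 2700000000 genome positions. Motifs were searched in the GRCh37 sequence. The software was Python 3.11.15 with scipy 1.17.1, numpy 2.4.6, matplotlib 3.10.9 and pandas 2.3.3, and pileup recovery, overlap and motif search were tested on simulated data. No test was run, as each group is 1 library. Alternatives tried were stricter lists (−log10 q from 5 or 10 upwards), an equal number of peaks per library, merged peaks, other windows (500 bp and 2 kb, 25 and 100 kb, 200 bp), 50% overlap and other definitions of distal. All members are named, and of the further lists the genes lacking a promoter peak in a line, except a few that are not reported here; regions described singly are the strongest per gene, those in all 4 lines, and some chosen after their values were seen. The members and lists were chosen with earlier results of these data known.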

Additional observations from a re-analysis of the deposited data

How the results depend on the processing

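No paired analysis was possible because there was 1 library per line, and no replicate could be left out. Of 117 values recomputed under alternatives, 95 stayed within 1.5 times of the reported value (motif shares within their interval) and 22 did not. The number of members with a promoter peak was among the former in every line and alternative. Distal peaks were 21, 32, 54 and 12 in COLO-205, DU-145 and the ovarian lines OVCAR-3 and SKOV-3 at a −log10 q of at least 10, and 8, 14 and 19 in COLO-205, DU-145 and OVCAR-3 with as many peaks per library as SKOV-3 has, since fewer peaks then remain. SKOV-3, whose list is whole in that setting, had 21, so the order of the lines turned. Within 25 kb they were 31 in COLO-205 and 59 in OVCAR-3, and within 100 kb 125 in DU-145 and 167 in OVCAR-3, as the window changes. In SKOV-3 they were 12 with peaks under 350 bp apart merged and 36 when peaks at promoters of other genes were kept. Without the FOS and BATF loci, a setting chosen after seeing the data, they were 30 in COLO-205, 40 in DU-145 and 33 in OVCAR-3. Members with a distal peak in COLO-205 were 6 at a −log10 q of at least 10 and 5 with equal numbers of peaks. Bases under peaks were 10943 in COLO-205, 49082 in DU-145 and 33636 in OVCAR-3 with equal numbers of peaks, and 42371 in OVCAR-3 without FOS and BATF, against 32834, 88221 and 68930 as reported. The promoter pattern was kept for 10 of 10 members at a −log10 q of at least 5 and with 500 bp, and for 9 of 10 with equal numbers of peaks (JUNB lost COLO-205) and with 2 kb (BATF gained DU-145).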
